A study of Mus musculus with 2 samples.

Results

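Cytosolic ribosomal proteins are the protein part of the ribosome outside mitochondria, and 87 of the 19829 genes in the deposited expression table belonged to this family. A row was taken as a member when its symbol was Rpl or Rps followed by a number, with or without a further letter or number, or was *Rplp0*, *Rplp1*, *Rplp2* or *Rpsa*. The rule used names alone and no measured value. It gave 36 proteins of the small (40S) subunit and 51 of the large (60S) subunit, of which 3 form the stalk. By their symbols 10 of the 87 were copies of another member, such as *Rps27l* or *Rpl22l1*, and 6 of these 10 were annotated as pseudogenes.

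RNA was sequenced from whole kidneys of C57BL/6 mice labelled as having acute kidney injury (AKI), giving 1 library for the wild type (WT) and 1 for transgenic (TG) littermates whose proximal tubules overexpressed *Inmt*, the gene for the enzyme indolethylamine N-methyltransferase. The libraries carried the names WT+AKI and TG+AKI, and the mice of both groups were 14 weeks of age and had been given high-dose voclosporin, a calcineurin inhibitor, at 30 mg/kg daily before bilateral renal ischemia for 30 min and reperfusion. The time from injury to collection of the kidneys was not uniform in the sources used here and is not given. Whether a library held RNA of more than 1 animal was not stated. The labels were not uniform, since the treatment field stated no treatment, the series design named voclosporin, and the title of the TG+AKI sample also contained the words conditional knockout. The promoter that drives the transgene was not given in the sources used here, and voclosporin and ischemia–reperfusion were shared by both groups. The pair of libraries was made to look at expression outside *Inmt* itself. With 1 library per group no difference below had a replicate check. Intervals cover counting error only, and every read test compares these 2 libraries and not the genotypes.

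A ribosome carries a single copy of nearly every ribosomal protein, and cells make these proteins in near-equal amounts together with ribosomal RNA. Their mRNAs are among the most abundant in any cell and typically begin with a C followed by an unbroken run of pyrimidines, the 5′ terminal oligopyrimidine (TOP) motif, through which mTOR signaling and the binding protein LARP1 control their translation. In the kidney, proximal tubule cells recovering from injury re-enter the cell cycle and enlarge, processes that draw on new ribosomes.

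Start-site sequences are shown for 9 members because the TOP motif is the sequence feature that the family is known for. They include *Rps6*, whose protein is the substrate after which S6 kinase was named, and members from both ends of the order of log2 fold changes given below. Each line gives the 30 bases from 10 before to 20 from the annotated start of transcription (RefSeq, GRCm38.p6), 5′ to 3′, with the longest run of C and T in capitals.
Rps6, chr4:86857348-86857377, minus strand: gaagtcgggCCTCTTTTTCgtgacgcctcc
Rps12, chr10:23787190-23787219, minus strand: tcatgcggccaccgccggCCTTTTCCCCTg
Rplp2, chr7:141447641-141447670, plus strand: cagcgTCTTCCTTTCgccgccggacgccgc
Rpl12, chr2:32961702-32961731, plus strand: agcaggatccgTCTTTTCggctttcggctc
Rpl36a, chrX:134585644-134585673, plus strand: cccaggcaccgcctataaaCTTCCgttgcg
Rpl10, chrX:74270806-74270835, plus strand: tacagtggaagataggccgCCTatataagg
Rps27, chr3:90213629-90213658, minus strand: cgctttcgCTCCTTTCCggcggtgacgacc
Rps9, chr7:3704031-3704060, plus strand: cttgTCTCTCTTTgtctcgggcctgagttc
Rpl22l1, chr3:28805498-28805527, plus strand: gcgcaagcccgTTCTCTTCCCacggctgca

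In RefSeq promoter records 62 of the 87 members were found by gene identifier, 57 of them among the 77 members that are not copies. A run of at least 8 pyrimidines between 20 bases before and 30 bases after the start was present in 32 of these 57 (56.1%), against 21.5% of all 27025 genes with a record. The longest run in that window had a median of 9 bases in the members and 5 in all genes. The run was thus common but not universal in the family, with 10 bases in *Rps6* and 3 in the window of *Rpl10* shown above. These counts rest on the annotated starts. The letters CCGGAAG, part of the site bound by ETS-family factors, occurred on either strand within 250 bases before to 50 after the start in 24 of 57 (42.1%) against 9.93% of all genes. On its reverse strand this word holds a short pyrimidine run and can overlap the run counted before. The letters TATAAA were found in the 50 bases before the start in 0 of 57 members and in 3.15% of all genes. In the window of *Rpl36a* shown above these letters stand after the annotated start and were not counted, and the accuracy of the starts was not tested. Members with the long pyrimidine run had a median log2 fold change of -0.41 between the libraries and the 25 without it -0.53, so that members with and without the feature were both lower in TG+AKI.

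The libraries held 38542764 reads (WT+AKI) and 36427421 reads (TG+AKI) in genes of the table, which held no gene without a read in either library. *Inmt*, the check of the labels, had normalized values of 10.4 (WT+AKI) and 403 (TG+AKI), 38.5-fold higher (95% interval 35.1 to 42.5), which is the direction the label gives. The 5 markers of injured tubules were all lower in TG+AKI, with summed values of 1885 and 17.9, and *Havcr1*, which encodes kidney injury molecule KIM-1, had 1169 and 2.78. *Havcr1* was thus near the floor of the library labelled TG+AKI, while the highest of the 5 markers there had 12.4. Their log2 fold changes lay between -8.27 and -2.08. Every comparison below is also one between high and very low summed levels of these markers. All 10 proximal tubule markers were higher in TG+AKI (summed values 9001 and 34648), as were 4 of 5 distal nephron markers (2090 and 3670) and 2 of 3 podocyte markers (331 and 385). Of 6 myeloid markers compared 5 were lower (9 markers summed, 157 and 68.6). The 5 markers of dividing cells summed to 17.7 and 5.89, 7 lymphocyte markers to 1.89 and 2.99, none above 0.59, and 5 erythroid markers to 2.69 and 5.47. Because the table held only genes with reads in both libraries, no marker with a row could be at 0. Of 9 listed lymphocyte markers 2 had no row. The marker values differed together with the ribosomal protein values below, and their part in the results was not tested.

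Ribosomal protein transcripts took a smaller part of the TG+AKI library. The 87 members together held 2.24% of all reads in WT+AKI (exact 95% interval 2.24% to 2.25%) and 1.37% in TG+AKI (1.36% to 1.37%). On the normalized scale, which the authors set between the libraries, their values summed to 20382 and 15024, a ratio of 0.737 (95% interval 0.735 to 0.740), or 1.36-fold lower in TG+AKI. In bulk tissue, fewer cells rich in these transcripts and less of them per cell cannot be told apart. Of the 500 genes with the highest values, members made up 37 in WT+AKI but 15 in TG+AKI, and among the top 1000 genes they made up 67 and 40. Transcripts of the mitochondrial genome moved the other way, from 13.7% to 19.2% of reads. With those reads left out of the totals the members still held 2.60% and 1.69%.

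The difference was small per gene, in nearly every gene and in 1 direction. Of the 87 members, 82 reached a normalized value of 10 in either library and were compared on the log2(value + 1) scale, with TG+AKI over WT+AKI as the fold change. The 5 not compared were the low-level copies *Rps4l*, *Rpl3l*, *Rpl32l*, *Rps3a3* and *Rps12l1*. The median log2 fold change of the 82 was -0.44 (a fold of 0.737), and 80 of 82 were below 0. All 10294 genes compared had a median of 0.014, with 48.8% below 0.

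With the deposited values 0 of the 82 compared members reached a 2-fold difference in either direction. Of all genes compared 5.74% were higher and 7.12% lower by that margin. With equal library totals 5 of 82 members were at least 2-fold lower, beside 1110 of all 10294 genes compared. With a median ratio of 1 over abundant genes 1 member was, beside 906 of all genes compared. With a smaller margin, a value 25% higher in one library than in the other, 59 of 82 members were lower in TG+AKI and 0 higher, against a background of 24.8% of all genes lower and 25.9% higher. Without the copies the count was 56 of 77. Reads were also compared by the two-sided exact binomial test given the library scaling, with Benjamini-Hochberg adjustment over all genes compared. It called 80 members lower in TG+AKI and 2 higher, against 39.1% and 41.3% of all genes. These splits depended on the scaling: with equal library totals 4540 genes were lower and 1430 higher by the smaller margin, in place of 2557 and 2668. All genes then moved by -0.27, and the members' median relative to that of all genes was -0.46, beside -0.45 with the deposited values.

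**Figure D1:**
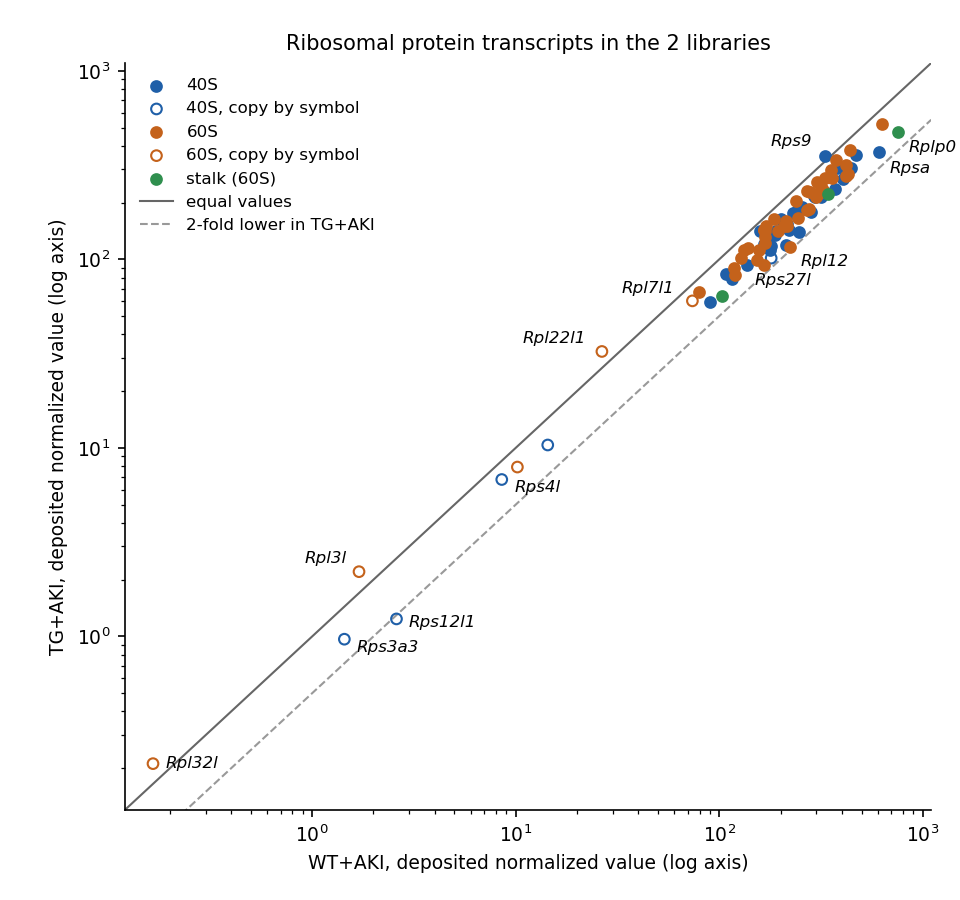
Normalized value of each of the 87 ribosomal protein genes in WT+AKI (x) and TG+AKI (y), 1 point per gene on log axes, with open circles for copies and lines at equal values and at a 2-fold lower value in TG+AKI. Of the 77 filled points all but *Rps9* lie below the line of equal values, and none of them reaches the 2-fold line.

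The members also lay closer together than other genes. The SD of their log2 fold changes was 0.20 over the 82 and 0.18 over the 77 without copies, against 0.79 over all genes compared. The interquartile range, which single extreme genes sway less, was 0.27 over the 82 members and 0.66 over all genes compared. Among 2436 other genes with a mean value in the same range (73.5 to 616.6) the SD was 0.86, the median 0.12, and 39.9% were lower in TG+AKI. Of these, the 82 genes with a transcript no longer than the median member transcript of 799 bases had a median of 0.22. Of these 82 genes 30 were lower in TG+AKI, and their SD was 1.05. The interquartile range was 0.69 over the 2436 genes and 0.52 over these 82. The longer members have no such set beside them. Across the 77 members the log2 fold change was close to unrelated to transcript length (Pearson r -0.08), GC content (0.10), number of exons (0.13) and mean level (0.08), given here as a description of 1 pair of libraries.

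Reads of ribosomal protein genes are hard to assign, because the genome carries many processed pseudogenes of them. The 19 compared members with under 20% of their 100-base words shared with another annotated gene had a median of -0.45 and were all lower in TG+AKI. The 36 with at least 50% shared had a median of -0.43, and 35 of them were lower. The search covered annotated transcripts and not the genome, and the part of misplaced reads in the values was not tested.

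Among 40S proteins the median log2 fold change was -0.49, with 32 of 33 compared members lower, and the summed reads went from 0.896% to 0.527% of the library. *Rps12* went from 247.5 in WT+AKI to 138.8 in TG+AKI (log2 fold change -0.83). *Rps19*, the gene most often mutated in Diamond-Blackfan anemia, had 212.1 and 119.9 (-0.82). *Rpsa*, which encodes the protein also known as the laminin receptor and sits on the 40S surface, had 608.2 and 372.4, a ratio of 0.612 (95% interval 0.599 to 0.626). These 3 lay at the low end of the subunit, well apart from its median. *Rps6*, whose protein is phosphorylated downstream of mTOR, lay nearer the middle with 316.2 and 213.4 (-0.57). *Rps4x*, an X-linked gene, had 369.0 and 236.9 (-0.64). *Rps9* stood at the other end as the only 40S member with a higher value in TG+AKI, 330.1 against 353.1. Its ratio was 1.07 (95% interval 1.04 to 1.10), and the adjusted p of the exact test on reads was 1.33e-07. The direction of *Rps9* was lost with equal library totals (log2 fold change -0.18) and with a median ratio of 1 (-0.047).

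Among 60S proteins the median was -0.39, with 48 of 49 compared members lower, and the summed reads went from 1.35% to 0.839%. The log2 fold changes of the subunits overlapped over most of their range. *Rpl12*, whose protein binds the base of the stalk, had the lowest log2 fold change of the compared members (-0.92), with 221.7 in WT+AKI against 116.6, which is 1.90-fold lower (95% interval 1.83 to 1.98). *Rpl36a* had 165.7 and 93.1 (-0.83). At the upper end of the subunit, *Rpl10*, whose protein joins the 60S subunit late in its assembly, had 376.0 and 336.1 (-0.16). *Rpl5*, whose protein binds the 5S ribosomal RNA, had 440.0 and 380.7 (-0.21). *Rpl18* had 185.2 and 164.3, *Rpl35a* 170.3 and 150.1, and *Rpl28* 165.4 and 143.3, all between -0.21 and -0.17. Even these members were lower in TG+AKI by more than counting error, with ratios between 0.865 and 0.894.

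The stalk is the flexible arm of the 60S subunit that recruits elongation factors, built from P0 and pairs of P1 and P2. *Rplp0* went from 757.2 to 476.0 between WT+AKI and TG+AKI, *Rplp1* had 343.9 and 221.9, and *Rplp2* had 102.7 and 64.1. Their log2 fold changes were -0.67, -0.63 and -0.67. The 3 stalk genes thus lay close together and below the 60S median. *Rplp0*, which is often used as a reference gene in quantitative PCR, held rank 75 among all genes in WT+AKI and rank 234 in TG+AKI.

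**Figure D2:**
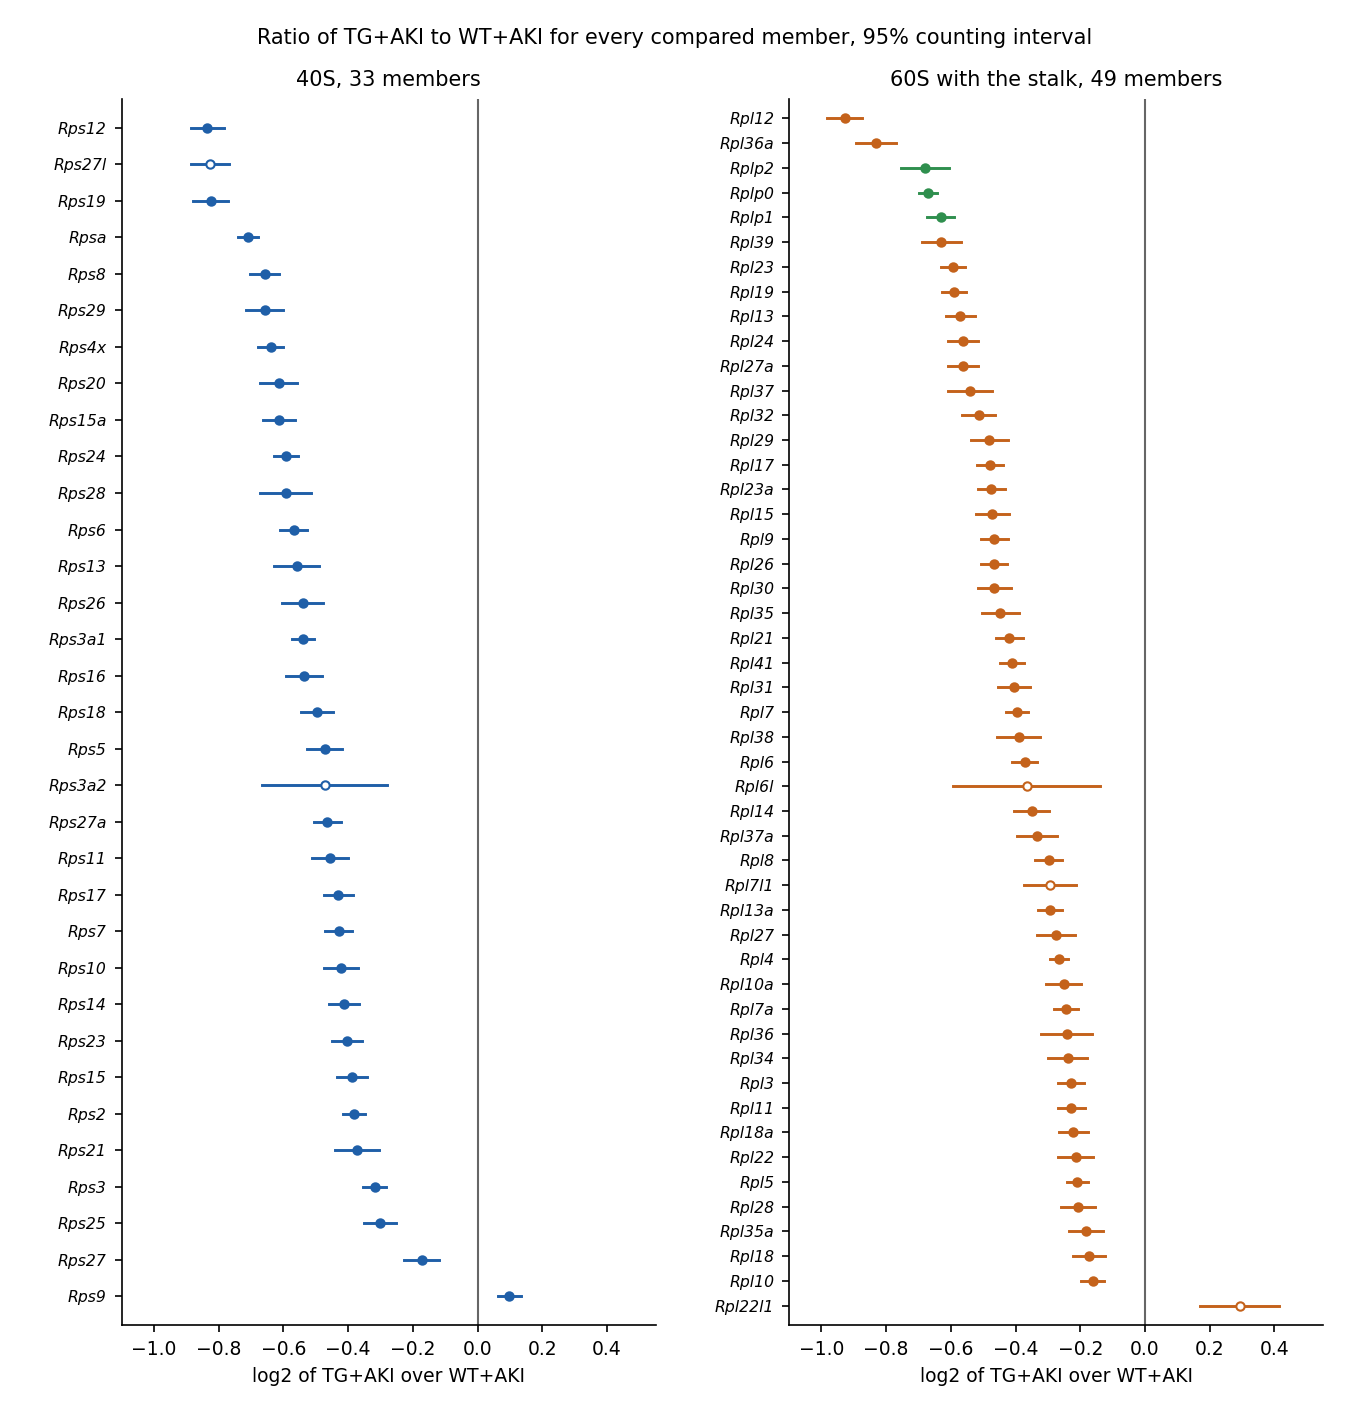
Log2 ratio of the TG+AKI value to the WT+AKI value for the 33 compared 40S members (left) and the 49 compared 60S members (right), ordered by ratio, with lines for 95% counting intervals, open circles for copies and green for the stalk. Every interval lies below 0 except those of *Rps9* and *Rpl22l1*, and the stalk genes lie together near the low end of their panel.

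Levels can be set between genes only per length. Per kilobase of the principal transcript, *Rplp1* had 689 in WT+AKI and 445 in TG+AKI, *Rpl41* 662 and 498, *Rpl26* 614 and 445, *Rpl19* 557 and 370, and *Rpl23a* 532 and 383. *Rplp0* was close to these with 558 and 351. These levels depended on the length used: per kilobase of merged exons of all transcripts *Rplp1* kept its level, whereas in WT+AKI *Rpl41* had 308, *Rpl26* 224, *Rpl19* 409 and *Rpl23a* 352, below *Rplp0* with 456 and *Rps3a1* with 453. The lowest levels among compared members that are not copies were those of *Rps15a* (42.5 and 27.8) and *Rps20* (48.4 and 31.6), and both rest on long annotated transcripts of 5179 and 3706 bases. Values not divided by length kept much the same order in the libraries, with r = 0.96 for log2 values across 77 members. This is a relation across genes that are not independent replicates. Single members shifted in rank per kilobase of the principal transcript, *Rps9* from 14 in WT+AKI to 2 in TG+AKI and *Rps12* from 15 to 35.

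The copies fell into those transcribed at a sizeable level and those near the floor. *Rps27l* encodes a paralog of *Rps27* that is induced by p53, and *Rpl22l1* and *Rpl7l1* encode paralogs of *Rpl22* and *Rpl7*. *Rps27l* had 179.9 in WT+AKI and 101.5 in TG+AKI (-0.82), whereas *Rps27* had 158.7 and 140.8 (-0.17). The ratio of *Rps27l* reads to *Rps27* reads was 1.13 (95% interval 1.10 to 1.17) in WT+AKI and 0.720 (0.689 to 0.753) in TG+AKI. The copy thus held 53.1% of the reads of the pair in WT+AKI and 41.9% in TG+AKI. These reads are not divided by length. Per kilobase of the principal transcript the ratio was 0.784 in WT+AKI and 0.498 in TG+AKI. Per kilobase of merged exons *Rps27l* had 220.5 in WT+AKI and 124.3 in TG+AKI, beside 152.2 and 135.0 for *Rps27*. Which gene had the higher level in WT+AKI thus depended on the length used.

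The coding sequences of this pair are shown because its reads can be told apart only where the genes differ. In GENCODE M21 (GRCm38) both are 255 bases long, *Rps27* on chromosome 3 and *Rps27l* on chromosome 9. They differ at 61 positions (76.1% identity), and no identical stretch is longer than 11 bases. Capitals mark the differing bases.
Rps27: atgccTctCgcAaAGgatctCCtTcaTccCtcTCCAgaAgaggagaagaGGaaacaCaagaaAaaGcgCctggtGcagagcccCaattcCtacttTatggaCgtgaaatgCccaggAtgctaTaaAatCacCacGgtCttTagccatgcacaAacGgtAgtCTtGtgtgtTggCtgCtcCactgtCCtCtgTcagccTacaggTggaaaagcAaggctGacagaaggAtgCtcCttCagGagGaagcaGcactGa
Rps27l: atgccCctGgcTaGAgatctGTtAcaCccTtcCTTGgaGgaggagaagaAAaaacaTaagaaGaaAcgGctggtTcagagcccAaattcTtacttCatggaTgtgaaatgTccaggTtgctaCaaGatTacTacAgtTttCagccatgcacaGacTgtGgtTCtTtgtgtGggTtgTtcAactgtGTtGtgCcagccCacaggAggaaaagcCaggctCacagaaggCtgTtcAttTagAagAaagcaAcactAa

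At this spacing of differences no 100-base word of the *Rps27l* transcript occurred in another annotated gene, whereas 98.4% of the words of *Rps27* did, shared with 2 genes, of which 1 is annotated as a pseudogene. The value of *Rps27* may therefore hold reads of other loci or lack reads of its own, which was not tested.

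*Rpl22l1* was the other of the 82 compared members with a higher value in TG+AKI, 26.5 against 32.5 (ratio 1.22, 95% interval 1.13 to 1.33, adjusted p = 4.08e-06 by the exact test on reads), while *Rpl22* had 165.5 and 142.6. With equal library totals the log2 fold change of *Rpl22l1* was 0.017 in place of 0.28, and the exact test then called 0 members higher in TG+AKI. The ratio of reads of the copy to those of *Rpl22* was 0.160 (0.150 to 0.171) in WT+AKI and 0.228 (0.213 to 0.243) in TG+AKI. Per kilobase of the principal transcript it was 0.595 and 0.846. *Rpl7l1* had 73.8 and 60.2, and its ratio to *Rpl7* (417.2 and 317.2) was 0.177 (0.170 to 0.184) and 0.190 (0.181 to 0.199). The intervals of the first pair did not overlap between the libraries, those of the second did.

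The remaining copies had few reads relative to their counterparts. Their 100-base words shared with another annotated gene were 100% in *Rps12l1*, 78.6% in *Rps3a2*, 61.9% in *Rpl6l* and 31.6% in *Rps3a3*. The share was 2.03% in *Rps4l* and 0% in *Rpl3l* and *Rpl32l*. Whether reads of the copies with shared words came from other loci was not tested. *Rps3a2* held 0.0325 and 0.0340 of the reads of *Rps3a1* (442.3 and 304.4), and *Rpl6l* held 0.0322 and 0.0323 of those of *Rpl6* (316.6 and 244.6), with overlapping intervals. *Rps4l* had 8.54 and 6.79, *Rps12l1* 2.59 and 1.24, *Rps3a3* 1.44 and 0.966, and *Rpl32l* 0.165 and 0.211 against 214.1 and 149.9 for *Rpl32*. *Rpl3l*, known as the form of *Rpl3* found in striated muscle, had 1.70 and 2.20 beside 301.8 and 257.7 for *Rpl3*.

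**Figure D3:**
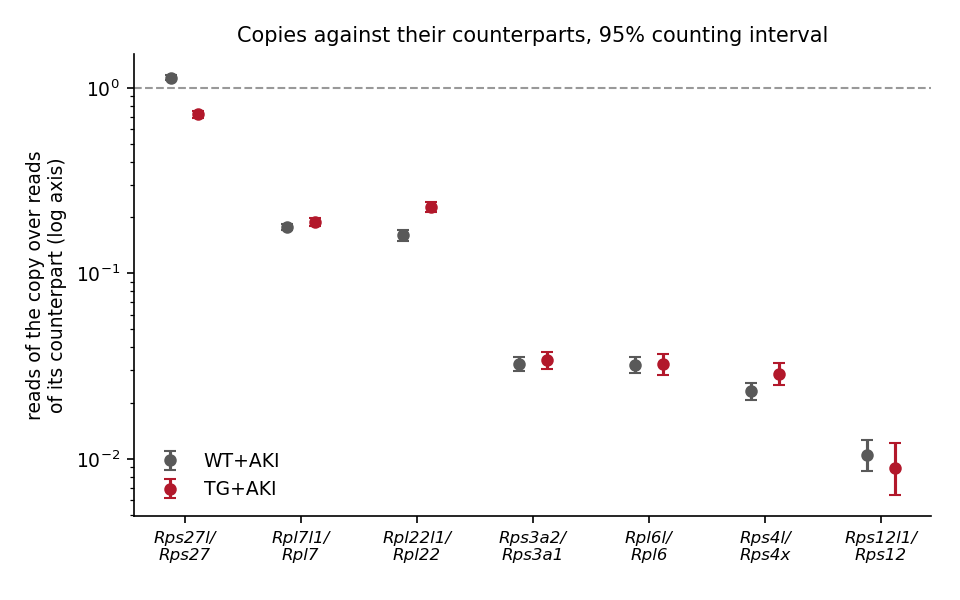
Reads of a copy divided by reads of its counterpart (log axis, no correction for length) in WT+AKI (grey) and TG+AKI (red), with 95% counting intervals. The figure shows 7 of the 10 copies. The *Rps27l* pair lies at 1.13 and 0.720 and the *Rpl22l1* pair at 0.160 and 0.228, while the intervals of the *Rpl7l1*, *Rps3a2*, *Rpl6l*, *Rps4l* and *Rps12l1* pairs overlap between the libraries.

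Rows with a pseudogene symbol (a ribosomal protein symbol followed by -ps), which the rule leaves out, numbered 143. Together they held 0.0333% of reads in WT+AKI and 0.0215% in TG+AKI, with summed values of 302.7 and 236.5, and 107 of the 143 were lower in TG+AKI. For 19 parent genes whose pseudogene rows had at least 100 reads in both libraries, rows and parent were both lower in TG+AKI in 19 of 19. Below that cut there were also parents whose rows were higher in TG+AKI. The 6 rows of *Rpl7a* pseudogenes, with 100 and 83 reads, summed to 2.36 and 2.51 (log2 ratio 0.088, parent -0.24). The 19 rows of *Rps12* pseudogenes summed to 12.5 and 7.28 (log2 ratio -0.79, parent -0.83). The 5 rows of *Rpl10* pseudogenes summed to 35.5 and 32.0 (-0.15, parent -0.16). Rows and parent were further apart for *Rpl35a*, whose 6 pseudogene rows summed to 11.5 and 11.3 (-0.025, parent -0.18). Across the 19 parents the log2 ratios had r = 0.91 and Spearman's rho 0.83, a description across genes within 1 pair of libraries that share sequence with each other. Transcription of these loci and reads of the parent placed there cannot be told apart.

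**Figure D4:**
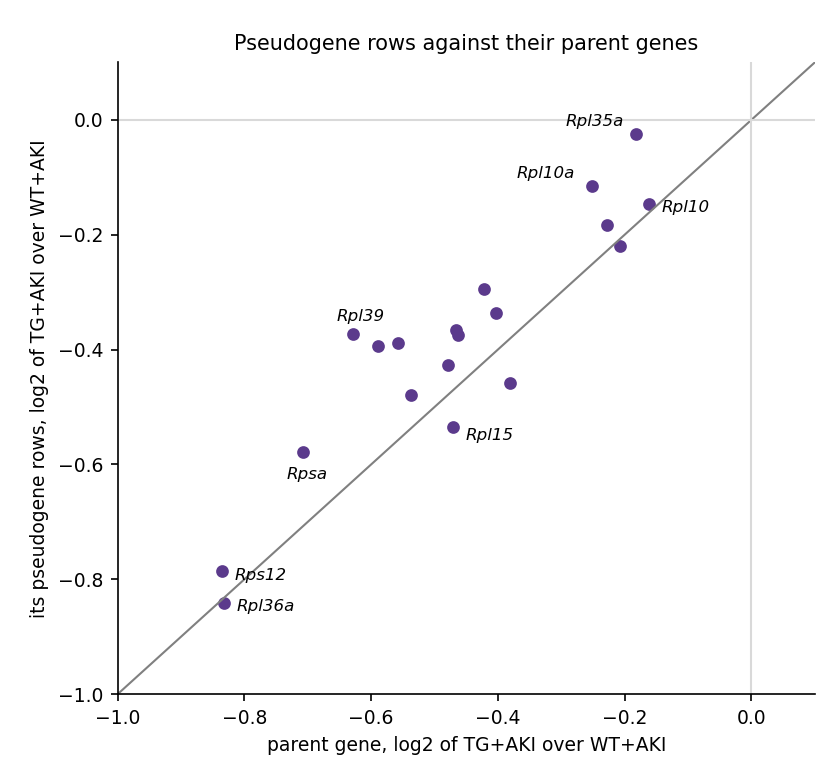
Log2 ratio of TG+AKI to WT+AKI for summed pseudogene rows (y) against the parent gene (x), 1 point per parent, with the line of equality. All 19 points lie below 0 on both axes, with *Rps12* and *Rpl36a* near -0.8 on both and *Rpl35a* highest on the y axis at -0.025.

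Further subunit genes that the symbol rule misses were also lower. *Rack1*, which encodes a 40S scaffold protein, had 415.6 in WT+AKI and 314.2 in TG+AKI (log2 fold change -0.40). *Fau*, which encodes a ribosomal protein made as a fusion to a ubiquitin-like sequence, had 136.3 and 127.2 (-0.098). Both lay between the family's median and 0.

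Genes that build, use or regulate ribosomes were described from lists, by their counts and medians beside the median of 0.014 over all genes compared. Ribosome assembly factors were lower in TG+AKI in 43 of 47 genes, with a median of -0.44, like that of the proteins they assemble. Of the 47 genes 2 were at least 2-fold lower, beside 7.12% of all genes compared. *Eif6*, which keeps new 60S subunits from joining the 40S, had 124.4 and 50.9 (-1.27). *Nop58*, a core protein of box C/D snoRNPs, had 48.9 and 23.2 (-1.04). *Gnl3*, which encodes nucleostemin, had 47.2 and 23.5 (-0.98). These 3 exceeded every compared ribosomal protein gene in the size of the log2 fold change.

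Of 9 compared genes of RNA polymerase I and its factors 7 were lower (median -0.24), among them *Taf1d* (47.5 and 32.3), the catalytic subunit gene *Polr1a* (34.5 and 25.5) and *Rrn3* (39.5 and 30.5). Initiation factors were lower in 22 of 30 (median -0.19). *Eif1a* had 101.5 and 44.3 (-1.18), *Eif4a1*, the helicase of cap-dependent initiation, 447.6 and 261.4 (-0.77), and *Eif2s1* 70.9 and 46.8 (-0.59).

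Other mRNAs with a known TOP motif were less uniform than the ribosomal proteins. Of 22 genes 17 were lower, with a median of -0.095. *Pabpc1*, the poly(A)-binding protein, had 431.5 and 251.2 (-0.78) and *Nap1l1* 239.9 and 154.2 (-0.63), whereas *Eif4b*, a cofactor of the helicase, was higher with 258.2 and 397.1 (0.62). Values in both directions thus occurred among mRNAs with this motif.

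Among 17 genes of the control of TOP mRNAs 6 were lower and 11 higher, with a median of 0.12. *Myc*, a transcription factor that drives ribosomal genes, went from 35.99 in WT+AKI to 4.86 in TG+AKI, a ratio of 0.135 (95% interval 0.114 to 0.159). *Eif4ebp1*, which encodes the mTOR-controlled repressor 4E-BP1, had 26.1 and 8.67 (-1.49), and *Eif4ebp2* differed the other way with 149.4 and 232.6 (0.63). *Mtor* had 191.4 and 221.9 and *Larp1* 122.9 and 135.0, both named after their values were seen. The median of this list turned negative with equal library totals (-0.14) and with a median ratio of 1 (-0.017).

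Ribosome rescue and stress genes were divided, with 7 lower and 6 higher (median -0.024). *Map3k20*, which encodes the ribotoxic stress kinase ZAK, had 30.9 and 12.7 (-1.22), *Etf1*, which encodes the release factor eRF1, 175.1 and 128.8 (-0.44), and *Eif2ak4*, which encodes the kinase GCN2, 19.3 and 14.7 (-0.37).

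Mitochondrial ribosomal proteins, which serve the separate ribosome inside mitochondria, did not follow the cytosolic family on the deposited scale. Of 78 genes 64 were higher and 14 lower, with a median of 0.20 against -0.44, and they held 0.272% of reads in WT+AKI and 0.261% in TG+AKI. *Mrpl50* had 57.2 and 97.4 (0.76), while *Mrpl33* had 51.1 and 23.0 (-1.11) and *Mrps18b* 43.5 and 24.6 (-0.80). With equal library totals their median was -0.067 and that of the cytosolic family -0.71.

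**Figure D5:**
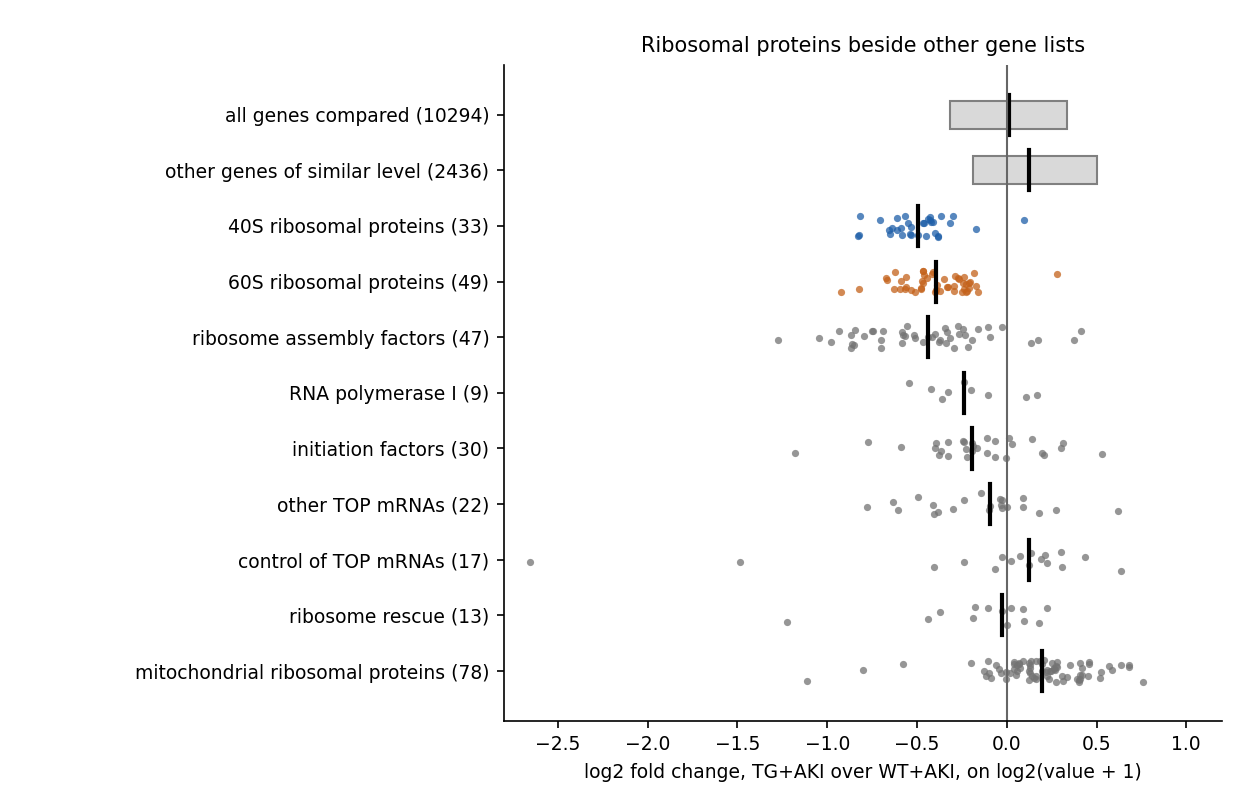
Log2 fold change of TG+AKI over WT+AKI on the log2(value + 1) scale, 1 point per gene for each list with a black bar at its median, and grey boxes from the lower to the upper quartile for all genes compared and for other genes with a mean value in the members' range. The 40S and 60S proteins and the assembly factors have medians of -0.49, -0.39 and -0.44, and mitochondrial ribosomal proteins one of 0.20.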

How the data were processed

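Messenger RNA of whole kidneys had been sequenced in 2 libraries, 1 per group, with the TruSeq Stranded mRNA kit. Per the labels, the submitters' processing notes name STAR 2.7.3a, HTSeq, DESeq2, Cufflinks 2.2.1, FastQC, edgeR and build mm10, while the annotation and the strand setting of the counting are not given in the sources used here, so reads of overlapping genes may be mixed. The deposited values are a normalized signal per gene that the authors made from read counts divided by a library scaling factor. All values (100%) were whole multiples of the smallest one in their column (tolerance 0.01), so whole reads were recovered. A read stood for 0.0236 (WT+AKI) or 0.0302 (TG+AKI), and a value of 10 for 424.0 or 331.2 reads.

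Groups came from the library names. Differences were taken on log2(value + 1) for genes of at least 10 in at least 1 library, with ratios and 95% Clopper-Pearson intervals from the reads. Reads were compared by the two-sided exact conditional binomial test with Benjamini-Hochberg adjustment at 0.05 over 10294 genes. The test could not be replaced by a count model with a dispersion, since there was 1 library per group. Every member had 1 transcript chosen from GENCODE M21 (GRCm38) for length, GC content and 100-base words, which were searched among annotated transcripts because no genome sequence was used here. Promoters came from RefSeq GRCm38.p6.

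The members and lists were chosen with earlier results of these data known. Named members were the stalk genes, *Rpsa*, *Rps6*, copies by symbol with their counterparts, the 8 highest and 8 lowest log2 fold changes, and the 5 highest and 5 lowest levels per kilobase. Other named genes were *Inmt*, *Rack1*, *Fau* and the 3 largest absolute changes of each list, and 1 further gene of the rule is not reported here. Alternatives were pseudocounts of 0.1 and 10, other filters and scalings, members with little shared sequence, totals without the mitochondrial genome, and merged exon lengths. Scripts were tested on simulated data and used Python 3.11.15, numpy 2.4.6, scipy 1.17.1, pandas 2.3.3 and matplotlib 3.10.9.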

Additional observations from a re-analysis of the deposited data

How the results depend on the processing

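No paired analysis was possible because each group held 1 library without a replicate number, and for the same reason no library could be left out. The 3 other scalings, the other pseudocounts and filters, and the restriction to little-shared members kept the median of the members, of the 40S and of the 60S below 0. With equal library totals these medians were -0.71, -0.77 and -0.67, and with a median ratio of 1 they were -0.58, -0.64 and -0.54. In the same order of scalings the lists had medians of -0.37 and -0.24 (other TOP mRNAs), -0.70 and -0.58 (assembly factors), -0.50 and -0.38 (RNA polymerase I), -0.46 and -0.33 (initiation), -0.14 and -0.017 (control of TOP mRNAs, reversed), -0.30 and -0.17 (rescue), and -0.067 (reversed) and 0.058 (mitochondrial ribosomal proteins). Relative to the median of all genes the members lay between -0.46 and -0.45 under all 4 scalings. The count of genes at least 2-fold higher was 372 with a pseudocount of 10, 374 with a filter of 50 and 369 with equal totals, and of genes 2-fold lower 408, 295 and 1110, and 1150 without a filter. Members at least 2-fold lower numbered 5 with equal totals and 1 with a median ratio of 1, beside 1110 and 906 of all genes compared. By the margin of 25%, equal totals gave 1430 genes higher and 4540 lower. The scalings of the read test, and the medians without copies, were added after seeing the data. With equal totals that test called 2313 genes higher and 6393 lower in TG+AKI. It called 0 members higher, beside 1 with a median ratio of 1. *Rps9* turned to -0.18 and -0.047, and the other 38 of 39 named members and all 25 other named genes kept their direction under 5 alternatives, *Rpl22l1* with 0.017 and 0.14 in the same order. Without mitochondrial genome reads the members' shares were 2.60% and 1.69%. RNA polymerase I had too few genes left under a filter of 50 for a median. Merged exon lengths moved 62 of 78 levels per kilobase by more than counting error. Differences between mice of 1 genotype were not measured, so counting intervals understate the error of every ratio.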
